A study of Homo sapiens with 4 samples.

Results

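The genes described here are the immunoglobulin heavy chain, kappa and lambda segments and JCHAIN in the human multiple myeloma lines KMS18 and KMS28BM, which the sample labels call K18 and K28BM. They were taken by symbol from the gene tables (V, D, J and constant genes of the 3 loci, without the unrelated IGHMBP2), and rows that share a symbol were summed, which gave 49 of the 22187 genes listed over the 4 tables. Both lines carry the translocation t(4;14), and both are labelled as plasma cells of bone marrow. In each line 1 library came from cells with a luciferase (Luc) construct, called control here, and 1 from cells with stable knockdown of PKCα (the product of PRKCA), called knockdown. The labels do not say whether the knockdown cells were a pool or 1 clone, and they name no repeat cultures. The tables list only genes with a value above 0, and a gene without a row was set to 0.

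An immunoglobulin is built of heavy chains and of light chains that are either kappa or lambda, and each chain is read from a variable (V) segment, a joining (J) segment and a constant gene, with a diversity (D) segment added in the heavy chain. A plasma cell clone keeps the V segment and the light chain that its founder rearranged, so these segments name the clone, while the heavy chain constant gene sets the isotype (IGHG genes for IgG, IGHA genes for IgA, IGHE for IgE). JCHAIN encodes the small joining chain that links IgA or IgM units and is made in plasma cells together with the secreted chains.

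The segments that name the 2 clones are shown first. The stretches are reference coding bases of GENCODE 29 (build GRCh38), read 5′ to 3′ along the coding strand, and they are not sequences of the lines themselves, whose own rearranged bases were not analysed here. Capitals mark the bases at which IGLV1-47 and IGLV1-44, the leading lambda V segments of KMS18, differ from each other over coding bases 52 to 351, and IGLV3-10, the leading segment of KMS28BM, is given in lower case over its last 300 coding bases.
IGLV1-47: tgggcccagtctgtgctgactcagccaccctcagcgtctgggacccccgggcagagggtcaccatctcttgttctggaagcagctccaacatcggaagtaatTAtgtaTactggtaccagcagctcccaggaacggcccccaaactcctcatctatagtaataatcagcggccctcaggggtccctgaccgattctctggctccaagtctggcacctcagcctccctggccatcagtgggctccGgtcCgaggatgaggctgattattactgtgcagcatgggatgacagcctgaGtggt
IGLV1-44: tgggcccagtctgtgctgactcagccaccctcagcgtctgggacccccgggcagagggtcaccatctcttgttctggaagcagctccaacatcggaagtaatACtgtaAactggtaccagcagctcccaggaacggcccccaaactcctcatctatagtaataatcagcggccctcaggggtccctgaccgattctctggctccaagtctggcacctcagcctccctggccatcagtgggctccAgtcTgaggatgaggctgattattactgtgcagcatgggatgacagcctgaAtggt
IGLV3-10: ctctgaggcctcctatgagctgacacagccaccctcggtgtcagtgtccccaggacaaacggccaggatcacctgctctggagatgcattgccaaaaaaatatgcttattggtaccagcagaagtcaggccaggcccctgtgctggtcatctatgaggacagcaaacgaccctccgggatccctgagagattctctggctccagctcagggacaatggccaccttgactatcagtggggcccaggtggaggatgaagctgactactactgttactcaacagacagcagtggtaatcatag
The 3 segments lie on the plus strand of chromosome 22, IGLV1-47 at 22357739 to 22358260, IGLV1-44 at 22380766 to 22381347 and IGLV3-10 at 22811747 to 22812281. IGLV1-47 and IGLV1-44 are 98.0% identical over 351 aligned coding bases, and only 6 bases are in capitals in the stretch shown. IGLV1-47 and IGLV3-10 are 73.6% identical.

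The libraries held between 37940949 and 39507281 expected counts. PRKCA was listed at 7.46 FPKM in KMS18 control and 1.47 in KMS18 knockdown, and at 10.9 in KMS28BM control and 2.43 in KMS28BM knockdown, so it was lower in both knockdown libraries. FPKM is the count scaled to the row's listed length and to the size of the library, and it is the scale used here to compare levels between genes. All 8 plasma cell markers checked, SDC1, TNFRSF17 and MZB1 among them, reached 1 FPKM. Fewer markers of other blood and stromal cells did: 2 of 5 mature B cell, 1 of 5 T cell, 1 of 4 NK cell, 1 of 5 myeloid, 0 of 4 erythroid and 0 of 5 stromal markers reached 1 FPKM in any library. The highest of these were CD3E, at 20.95 FPKM in KMS18 knockdown, and CR2, at 14.2 FPKM in KMS28BM control. Each line and construct has 1 library, so no p-value was computed within a line, and the intervals given for shares and ratios cover counting error only. The test over both lines (edgeR's quasi-likelihood test with the line as a block, Benjamini-Hochberg adjustment over 14870 genes) rests on 1 residual degree of freedom per gene and measures how alike the 2 lines moved.

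Immunoglobulin transcripts took a larger part of the KMS18 libraries than of the KMS28BM libraries, and a smaller part in each knockdown library than in its control. The 49 members held 5.345% of all counts in KMS18 control (exact binomial 95% interval 5.338 to 5.353) and 4.91% in KMS18 knockdown (4.903 to 4.917). They held 1.976% in KMS28BM control (1.972 to 1.981) and 1.568% in KMS28BM knockdown (1.564 to 1.572). The knockdown share was thus 91.85% of the control share in KMS18 and 79.35% in KMS28BM. The 2 lines are not replicates of each other and have 1 pair each, so these ratios carry no replicate error. In bulk libraries such as these, fewer cells of a type and less RNA per cell cannot be told apart.

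The lower share of KMS28BM knockdown lay in the lambda chain and not in JCHAIN. Lambda genes held 1.16% of all counts in KMS28BM control and 0.737% in knockdown, which is 63.4% of the control share. JCHAIN held 0.761% in KMS28BM control and 0.784% in knockdown, 103.0% of the control share. In KMS18 both were slightly lower in the knockdown library, lambda at 91.8% and JCHAIN at 91.5% of the control share. The make-up of the immunoglobulin counts was alike in both KMS18 libraries, with lambda at 84.8% and 84.8%, and differed in KMS28BM, with lambda at 58.8% in control and 47.0% in knockdown. JCHAIN held 12.9% of the immunoglobulin counts in both KMS18 libraries, 38.5% in KMS28BM control and 50.01% in KMS28BM knockdown. Per unit of length, lambda took 92.7% and 92.5% of the members' summed FPKM in KMS18 and 78.5% and 69.8% in KMS28BM, control before knockdown.

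**Figure D1:**
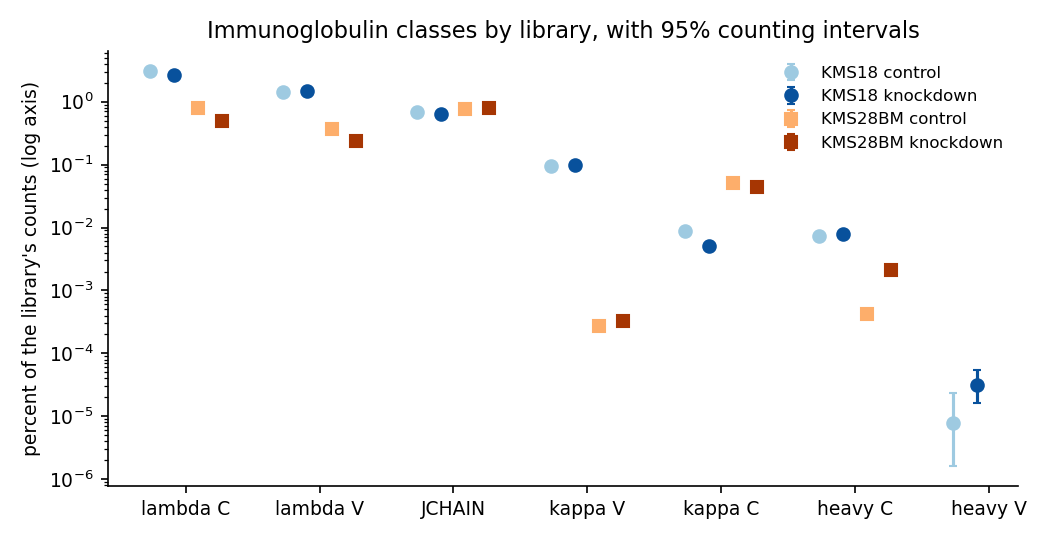
Share of all expected counts (percent, log axis) taken by each class of immunoglobulin gene in the 4 libraries, with exact binomial 95% intervals that cover counting error only. Points are single libraries, and heavy V has no point in KMS28BM because its count was 0; JCHAIN stands between 0.632% and 0.784% in all 4 libraries, while lambda C runs from 0.501% to 3.12%.

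Few of the annotated segments had any count. Of the segments that GENCODE 29 annotates, 4 of 150 heavy V, 1 of 37 D, 13 of 103 kappa V and 15 of 76 lambda V segments had a row, and none of the J segments of the 3 loci had one. Of the constant genes, 9 of 12 heavy, 1 of 1 kappa and 5 of 9 lambda genes or pseudogenes had a row, and the IgM and IgD constant genes IGHM and IGHD had none. The number of members with a count above 0 was 37 in KMS18 control, 36 in KMS18 knockdown, 27 in KMS28BM control and 24 in KMS28BM knockdown. A count in all 4 libraries was found for 14 members, in KMS18 alone for 19 and in KMS28BM alone for 6. Many of those found in 1 line had only a few counts, such as 1 for IGKV1-37 in KMS18 and 1 for IGLV2-8 in KMS28BM. Absence from the other line therefore says little, and the same tally over all genes is not given. Of the 49 members, 22, with at most 8 counts in any library, were too low for the test across genes, which left 27.

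Both lines expressed lambda light chain far above kappa. Lambda took 97.7% of the light chain counts in KMS18 control, 97.6% in KMS18 knockdown, 95.7% in KMS28BM control and 94.3% in KMS28BM knockdown. On constant genes alone the lambda share was 99.7% and 99.8% in KMS18 and 93.9% and 91.9% in KMS28BM, control before knockdown. On either measure the lambda share was lowest in KMS28BM knockdown.

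The lambda constant genes IGLC2 and IGLC3 encode lambda constant regions, and a different one led in each line. IGLC3 had 61713 FPKM in KMS18 control and 53064 in KMS18 knockdown, against 568 in KMS28BM control and 307 in KMS28BM knockdown. IGLC2 had 10260 FPKM in KMS18 control, 9098 in KMS18 knockdown, 15861 in KMS28BM control and 9826 in KMS28BM knockdown. IGLC3 thus led in both KMS18 libraries, with 81.7% and 81.3% of the lambda constant counts, and IGLC2 led in both KMS28BM libraries, with 97.1% and 97.5%. IGLC1 had 0 counts in 3 libraries and 1.02 in KMS28BM knockdown. The first 120 coding bases of the 3 genes are given here because reads are assigned among them by a small number of bases, and capitals mark the bases at which the 3 are not all alike.
IGLC1: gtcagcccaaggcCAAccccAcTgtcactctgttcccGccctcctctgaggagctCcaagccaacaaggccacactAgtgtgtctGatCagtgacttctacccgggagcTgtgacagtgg
IGLC2: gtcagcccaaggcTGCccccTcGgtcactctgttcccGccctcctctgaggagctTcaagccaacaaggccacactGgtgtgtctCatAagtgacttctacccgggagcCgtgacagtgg
IGLC3: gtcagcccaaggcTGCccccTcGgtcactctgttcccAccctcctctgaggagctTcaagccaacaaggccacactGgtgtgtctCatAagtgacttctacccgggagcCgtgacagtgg
These genes lie on the plus strand of chromosome 22, IGLC1 at 22895375 to 22895834, IGLC2 at 22900976 to 22901437 and IGLC3 at 22906342 to 22906803. IGLC2 and IGLC3 differ at 3 of 317 coding bases (99.1% identical), so the split between them is uncertain where the authors' counting could share reads. IGLC1 is 95.3% identical to IGLC2.

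A gene outside the set touches the IGLC1 count. IGLL5, a lambda-like gene, spans 22887780 to 22896107 of chromosome 22 and so contains IGLC1, and its last 317 coding bases are those of IGLC1. IGLL5 had 34.1 FPKM in KMS18 control and 34.3 in KMS18 knockdown, but 6016 in KMS28BM control and 3548 in KMS28BM knockdown. In KMS28BM control it thus stood below IGLC2 (15861 FPKM) and above IGLC3 (568 FPKM). By count IGLL5 had 214607 in KMS28BM control and 125984 in KMS28BM knockdown, beside 307230 and 190883 for IGLC2. The shares of lambda constant counts given for IGLC2 and IGLC3 leave IGLL5 out, and would be lower in KMS28BM with it. Counting IGLL5 with the members would bring their share to 2.519% in KMS28BM control and 1.89% in KMS28BM knockdown. Which of the 2 overlapping genes its reads came from was not tested.

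Each line had its own leading lambda V segment, at a level in the same range as its lambda constant gene. IGLV1-47 had 25921 FPKM in KMS18 control and 27866 in KMS18 knockdown, and 3.34 and 2.84 in the KMS28BM libraries. IGLV1-44 had 11506 and 11579 FPKM in KMS18, and 1.39 and 1.03 in KMS28BM. IGLV3-10 had 10691 FPKM in KMS28BM control and 6857 in KMS28BM knockdown, and 1.27 and 6.72 in KMS18. Each of these segments was named because it is among the leading ones of a line, so its difference between the lines supports nothing further.

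In KMS18, IGLV1-47 held 65.5% of the lambda V counts in control and 67.0% in knockdown, and IGLV1-44, which differs at 6 of the 300 bases shown above, held 34.4% and 33.0%. IGLV5-48 came next, with 68.7 counts in control and 37.91 in knockdown. In KMS28BM, IGLV3-10 held 96.7% and 96.1%, followed by IGLV3-16 with 2.75% and 3.18% and IGLV3-25 with 0.458% and 0.621%. IGLV3-16 and IGLV3-25 are 88.5% and 89.3% identical to IGLV3-10 over their coding bases. Reads of 1 rearranged, mutated segment could have been shared between such near copies, and this was not tested.

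**Figure D2:**
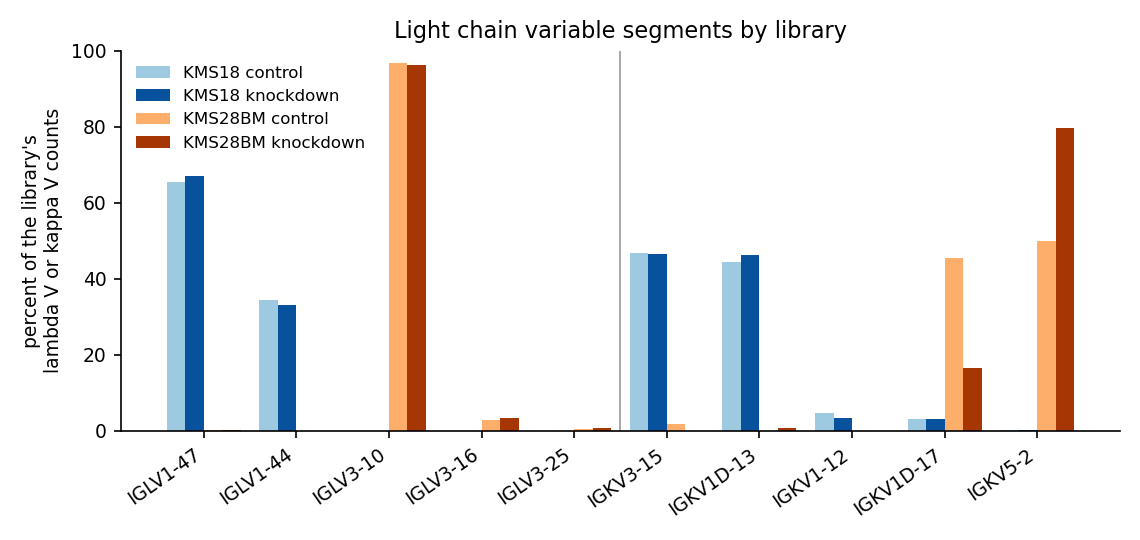
Percent of the lambda V counts (left of the line) or kappa V counts (right of the line) held by each leading V segment in the 4 libraries, 1 bar a library, with no replicate error. IGLV1-47 and IGLV1-44 share the lambda V counts of KMS18, IGLV3-10 holds 96.1% or more of those of KMS28BM, and the KMS28BM kappa V bars rest on 108 and 128 counts.

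The sum of lambda V levels stood in a similar ratio to the sum of lambda constant levels in all 4 libraries. The ratio of summed V to summed constant FPKM was 0.52 in KMS18 control, 0.635 in KMS18 knockdown, 0.676 in KMS28BM control and 0.708 in KMS28BM knockdown. Within KMS28BM the V and constant segments were lower together in the knockdown library, at 65.4% and 62.5% of the control share of counts. Within KMS18 they were not, with lambda V at 104.6% and lambda constant at 86.0% of the control share.

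Kappa transcripts were of a different kind in each line. IGKC, the kappa constant gene, had 164 FPKM in KMS18 control, 89.8 in KMS18 knockdown, 846 in KMS28BM control and 708 in KMS28BM knockdown, so it was higher in KMS28BM. The kappa V segments summed to 2656 FPKM in KMS18 control and 2725 in KMS18 knockdown, but only 2.29 and 2.04 in KMS28BM. The ratio of summed kappa V to IGKC was accordingly 16.2 and 30.3 in KMS18 and 0.00271 and 0.00288 in KMS28BM, control before knockdown. KMS18 thus held kappa V transcripts far above its kappa constant transcripts, and KMS28BM the reverse.

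In KMS18 the kappa V counts came from IGKV3-15 and IGKV1D-13. IGKV3-15 had 17041 counts in control and 17262 in knockdown, and 2 and 0 counts in the KMS28BM libraries. IGKV1D-13 had 16201 counts in control and 17167 in knockdown, and 0 and 1 in KMS28BM. IGKV3-15 held 46.7% and 46.4% of the kappa V counts of KMS18 and IGKV1D-13 held 44.4% and 46.2%. By FPKM the order turned, with IGKV1D-13 at 49.1% and 51.1% and IGKV3-15 at 43.6% and 43.3%. IGKV1-12, which is 92.9% identical to IGKV1D-13, came next with 1723 and 1237 counts. The IGKV1-12 counts were split evenly over 2 gene identifiers, 861 each in control and 619 each in knockdown, so this gene's level depends on how copies were counted. In KMS28BM the highest kappa V row by count was IGKV5-2, with 54.0 and 102 counts over a listed length of 2498 bases, and IGKV1D-17 followed with 49 and 21 counts. By FPKM IGKV1D-17 led in KMS28BM control (1.38 against 0.56) and IGKV5-2 in KMS28BM knockdown (1.06 against 0.56). IGKV3-15 was listed under an identifier that GENCODE 29 does not place, so no position is given for it, while IGKV1D-13 lies at 90154073 to 90154574 of chromosome 2, plus strand.

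Heavy chain transcripts were scarce in both lines. The 9 heavy constant rows summed to 2771 counts in KMS18 control, 3044 in KMS18 knockdown, 170.0 in KMS28BM control and 826 in KMS28BM knockdown. That is 0.233%, 0.297%, 0.0504% and 0.386% of all heavy and light constant counts in the same order. Heavy V segments had 3 counts in KMS18 control, 12 in KMS18 knockdown and 0 in both KMS28BM libraries, and IGHV6-1 led with 2 and 8 counts in KMS18. A count of 0 (taken as fewer than 3) allows a share of up to 7.59e-06% of all counts in KMS28BM control and 7.67e-06% in KMS28BM knockdown. By summed FPKM, heavy V stood at 0.00669 and 0.0217 of heavy constant in KMS18.

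The isotype of the scarce heavy constant transcripts differed between the lines. IGHG2 had 24.5 FPKM in KMS18 control, 23.1 in KMS18 knockdown, 0.02 in KMS28BM control and 0.05 in KMS28BM knockdown, so it reached 1 FPKM in KMS18 alone. It held 85.0% of the heavy constant counts in KMS18 control and 72.2% in KMS18 knockdown. The other IgG genes were low in KMS18 (IGHG1 40.2 and 49.4 counts, IGHG3 82.4 and 87.4, IGHG4 102 and 131) and had at most 4 counts in KMS28BM. In KMS28BM the IGHA genes led, with 88.8% of the heavy constant counts in control (95% interval 83.1 to 93.2) and 93.1% in knockdown (91.2 to 94.7). In KMS18 the IGHA genes held 5.74% of them in control (4.90 to 6.67) and 16.0% in knockdown (14.8 to 17.4). By FPKM the IGHA share of KMS18 was larger, 15.9% in control and 32.8% in knockdown.

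The 2 IgA genes were the members called higher in the knockdown libraries over both lines. IGHA1 had 14.6 counts in KMS18 control and 55.7 in KMS18 knockdown, and 117 in KMS28BM control and 611 in KMS28BM knockdown. IGHA2 had 144 and 432 counts in KMS18 and 34.1 and 158 in KMS28BM, control before knockdown. Both were higher in the knockdown library of each line, from 3.0-fold (IGHA2 in KMS18) to 5.28-fold (IGHA1 in KMS28BM) as a share of counts. Over both lines IGHA1 rose by a log2 fold change of 2.16 (SE 0.27, adjusted p = 0.00926 by edgeR's quasi-likelihood test) and IGHA2 by 1.79 (SE 0.26, adjusted p = 0.0126). With limma on log2(FPKM + 1) IGHA1 was not called (1.41, adjusted p = 0.0797) while IGHA2 was, and without the line as a block neither was (adjusted p = 1.0 for each, edgeR).

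IGHE, the IgE constant gene that lies between them on chromosome 14, had 32 and 92 counts in KMS18 and 11 and 50 in KMS28BM. Its log2 fold change was 1.74 (SE 0.42) and did not pass the test (adjusted p = 0.0517 by edgeR). The levels stayed far below those of the light chain: IGHA1 reached 14.1 FPKM in KMS28BM knockdown, where IGLC2 had 9826. Beside the rise, the summed FPKM of the plasma cell markers was 1989 in KMS18 control and 1224 in KMS18 knockdown. In KMS28BM this sum was 1972 in control and 1173 in knockdown. CD38 went the other way. Its KMS18 knockdown level of 29.17 FPKM stood above the control level of 26.39, and in KMS28BM 5.99 stood above 4.99. The other plasma cell markers were lower in both knockdown libraries. For PRDM1 in KMS28BM the gap was small, with 46.43 FPKM in control and 42.52 in knockdown. What part these marker levels had in the result was not tested. T cell markers summed to 7.71 and 21.5 FPKM in KMS18 and 1.16 and 3.44 in KMS28BM, nearly all of it CD3E, while CD3D, CD3G, CD2 and CD8A were at 0.40 FPKM or less in all 4 libraries.

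IGHA1 and IGHA2 share most of their sequence but differ at 40 of 1020 aligned coding bases and by a longer gap in the hinge. The stretch around it is given here, with capitals at the bases of IGHA1 that IGHA2 lacks or has otherwise, and at the bases of IGHA2 that differ from IGHA1.
IGHA1: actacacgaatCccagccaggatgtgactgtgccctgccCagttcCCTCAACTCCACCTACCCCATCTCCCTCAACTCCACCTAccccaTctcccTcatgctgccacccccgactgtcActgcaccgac
IGHA2: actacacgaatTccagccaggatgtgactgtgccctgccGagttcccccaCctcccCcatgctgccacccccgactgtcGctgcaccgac
IGHA1 lies at 105703995 to 105708665, IGHE at 105597691 to 105601728 and IGHA2 at 105583731 to 105588395 of chromosome 14, all on the minus strand. The 2 IgA genes are 96.1% identical over 1020 aligned coding bases, and the longest gap, 39 bases, is in the hinge shown. The split of counts between them is therefore uncertain. Each was also listed under 2 gene identifiers. With identifiers kept apart, IGHA1 rose under both (log2 1.98 and 2.57, adjusted p = 0.04986 and 0.04996 by edgeR), and IGHA2 rose under 1 of them (2.07, adjusted p = 0.04312) and not under the other (0.92, adjusted p = 0.4093).

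**Figure D3:**
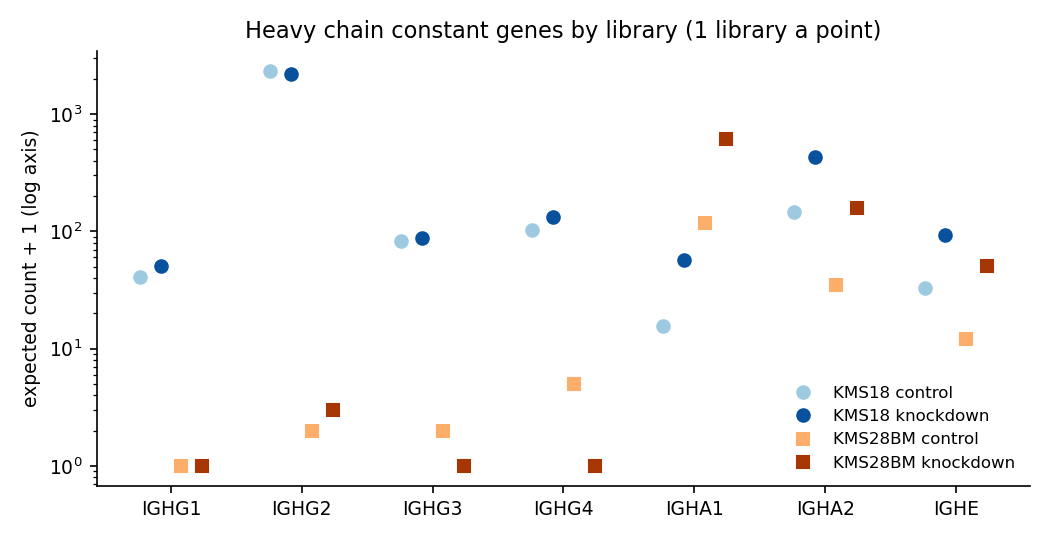
Expected count plus 1 (log axis) of the 7 heavy chain constant genes in the 4 libraries, 1 point a library, with no replicate error. The knockdown point lies above its control in both lines for IGHA1, IGHA2 and IGHE, and IGHG2 stands at 2197 counts or more in KMS18 and at 1.99 or less in KMS28BM.

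Of the 27 members tested over both lines, 2 were called higher in knockdown, where 3.57% of all genes tested were, and 1 was called lower, where 5.25% were. In all, 8 of the 27 had an unadjusted p under 0.05 by edgeR, where 3919 of the 14870 genes tested had one. The member called lower was IGHD3-9, listed as a D segment, with 2423 counts in KMS18 control, 1211 in KMS18 knockdown, 137 in KMS28BM control and 86 in KMS28BM knockdown. It was lower in the knockdown library of each line and its log2 fold change over both lines was -0.95 (SE 0.14), a fall that passed edgeR's test (adjusted p = 0.0126). The listed length of this row is 4217 bases, while the annotated segment is 31 bases long (chromosome 14, 105904681 to 105904711, minus strand), and the row includes a transcript assembled by the authors. Which bases its reads cover was not tested. With limma on log2(FPKM + 1) it was not called (-0.59, adjusted p = 0.132).

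The abundant light chain members were not called. IGLC3 had a log2 fold change of -0.61 (SE 0.18, adjusted p = 0.0836 by edgeR) and IGLC2 of -0.50 (SE 0.15, adjusted p = 0.0954). Both had lower shares of counts in each knockdown library than in its control, IGLC3 at 85.6% of control in KMS18 and 54.6% in KMS28BM, and IGLC2 at 87.8% and 62.8%. IGKC came close to the threshold, with a log2 fold change of -0.58 (SE 0.14, adjusted p = 0.051), at 57.9% of control in KMS18 and 84.7% in KMS28BM. The lambda V segments IGLV1-47 (-0.03, SE 0.15) and IGLV3-10 (-0.08, SE 0.47) and JCHAIN (-0.11, SE 0.13, adjusted p = 0.63) were further from it. IGLV1-47 is at a trace level in KMS28BM and IGLV3-10 in KMS18, so for these segments the value over both lines mixes a clonal transcript with a trace. For IGLV3-10 its sign turned with DESeq2 (0.80) and limma on log2(FPKM + 1) (0.56), and for IGLV1-47 without the line as a block (0.04), all uncalled.

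Within a line, members were described by a rule of size, a difference of at least 1 in log2(FPKM + 1) with 1 FPKM or more in either library, and no test. In KMS18, 2 of 23 members at that level were past it upward, where 0.818% of all genes were, and 0 downward, where 0.647% were. These were IGHA2 and IGLV3-10, the latter from 1.27 to 6.72 FPKM, a trace beside the 10691 FPKM of KMS28BM control. In KMS28BM, 2 of 13 were past it upward, IGHA1 and IGHA2, where 1.24% of all genes were, and 0 downward, where 0.751% were. The median difference of the members at that level was -0.04 in KMS18 and -0.24 in KMS28BM, beside 0.04 and 0.05 over all genes.

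**Figure D4:**
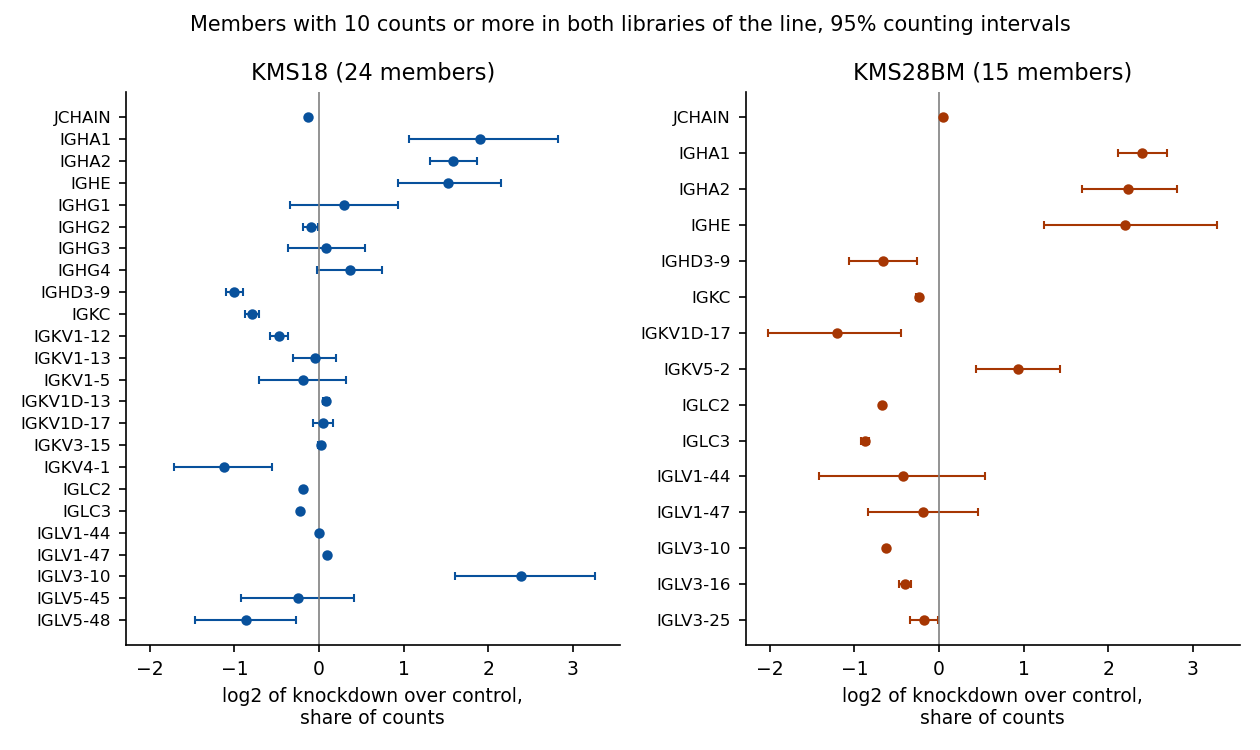
Log2 ratio of the knockdown to the control share of counts for the members with 10 or more counts in both libraries of a line (24 in KMS18, 15 in KMS28BM), with exact 95% intervals that cover counting error only. IGHA1, IGHA2 and IGHE lie to the right of 0 in both lines; IGLV3-10 lies to the right in KMS18 (16 and 84.3 counts) and to the left in KMS28BM.

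Between the lines nearly all tested members differed. In KMS28BM 6 of 27 tested members were higher than in KMS18, where 30.6% of all genes tested were, and 19 were lower, where 32.3% were. Many members entered this test only through the line where they are high, so the counts support nothing further. The 6 higher in KMS28BM were IGHA1, IGKC, IGKV5-2, IGLV3-10, IGLV3-16 and IGLV3-25. The 2 that were not called were IGLC2 (log2 0.12, SE 0.15, adjusted p = 0.531 by edgeR) and JCHAIN (log2 0.14, SE 0.13, adjusted p = 0.354). IGLC2 was not called between the lines although it held 18.3% of the lambda constant counts in KMS18 control and 97.1% in KMS28BM control.

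Of the genes that fold, export and transcribe immunoglobulin chains, those that passed the test over both lines were lower in the knockdown libraries. Over 5 lists of such partners, 0 of 62 tested genes were called higher by edgeR, where 3.57% of all genes were, and 28 were called lower, where 5.25% were. DESeq2 called 0 higher and 31 lower, limma called 0 higher and 5 lower on log2(FPKM + 1) and 0 in either direction with a pseudocount of 0.1 (0 higher and 30 lower at an unadjusted p under 0.05), and in edgeR 2 (SPIB and HNRNPLL) were higher at an unadjusted p under 0.05, beside 41 lower. DESeq2 fitted 67 of the partners and 22108 genes in all, of which it called 466 higher and 847 lower. On log2(FPKM + 1), limma fitted 59 partners and 12598 genes in all, of which it called 50 higher and 67 lower. The median log2 fold change over all genes tested by edgeR was 0.02. Of these 14870 genes, 3919 had an unadjusted p under 0.05 by edgeR, in either direction. The partner lists were chosen with earlier results of these data known, so the shares called support nothing further about them.

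Of the factors that fold and assemble chains in the endoplasmic reticulum, 9 of 15 fell (median log2 fold change -0.52). HSPA5, the chaperone BiP that holds unpaired heavy chains, had 293 FPKM in KMS18 control and 190 in KMS18 knockdown, and 591 and 383 in KMS28BM; its log2 fold change was -0.69 (SE 0.11, adjusted p = 0.0144 by edgeR). HSP90B1, MZB1 and PDIA4, which assist chain folding, fell by 0.72, 0.83 and 0.85. Of the genes for entry into that compartment and export from it, 10 of 13 fell (median -0.62). LMAN1, a cargo receptor for export, had 105 and 25.1 FPKM in KMS18 and 114 and 29.2 in KMS28BM, control before knockdown, and fell by 2.04 (SE 0.10, adjusted p = 0.00153). SSR1, which belongs to a complex at the translocation channel, fell by 1.72, and the signal peptidase subunits SPCS3 and SPCS2 fell by 1.13 and 0.96.

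Of the factors for transcription and messenger processing of the immunoglobulin loci, 6 of 16 tested fell (median -0.26). XBP1, a transcription factor of secreting plasma cells, had 360.0 and 196 FPKM in KMS18 and 472 and 265 in KMS28BM, and fell by 0.90 (SE 0.10, adjusted p = 0.00671 by edgeR). ELL2, an elongation factor linked to the secreted form of heavy chain messenger, fell by 1.26, POU2AF1, a coactivator of immunoglobulin promoters, by 0.77 and POU2F1 by 0.63. SPI1 was at 0 in all 4 libraries. POU2F2 had 4.37 FPKM in KMS18 control and 9.78 in KMS18 knockdown, past the size rule upward, but 2.84 and 1.87 in KMS28BM, and was not called (log2 0.39, SE 0.35, adjusted p = 0.526 by edgeR).

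Of the recombination, switching and mutation genes, 3 of 11 tested fell (median -0.32), among them XRCC6, an end-joining protein, by 0.73 and UNG, a uracil glycosylase, by 0.55. RIF1 had a log2 fold change of -0.31 and was not called (adjusted p = 0.0997 by edgeR). DNTT was at 0 in all 4 libraries. Of the receptor partners and surrogate light chain genes, 0 of 7 tested were called by edgeR and 0 by DESeq2 (median -0.46). In edgeR 1 of them, IGLL5, had an unadjusted p under 0.05. CD79A (log2 -0.46), CR2 (-0.70) and FCRLA (0.33) were not called.

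**Figure D5:**
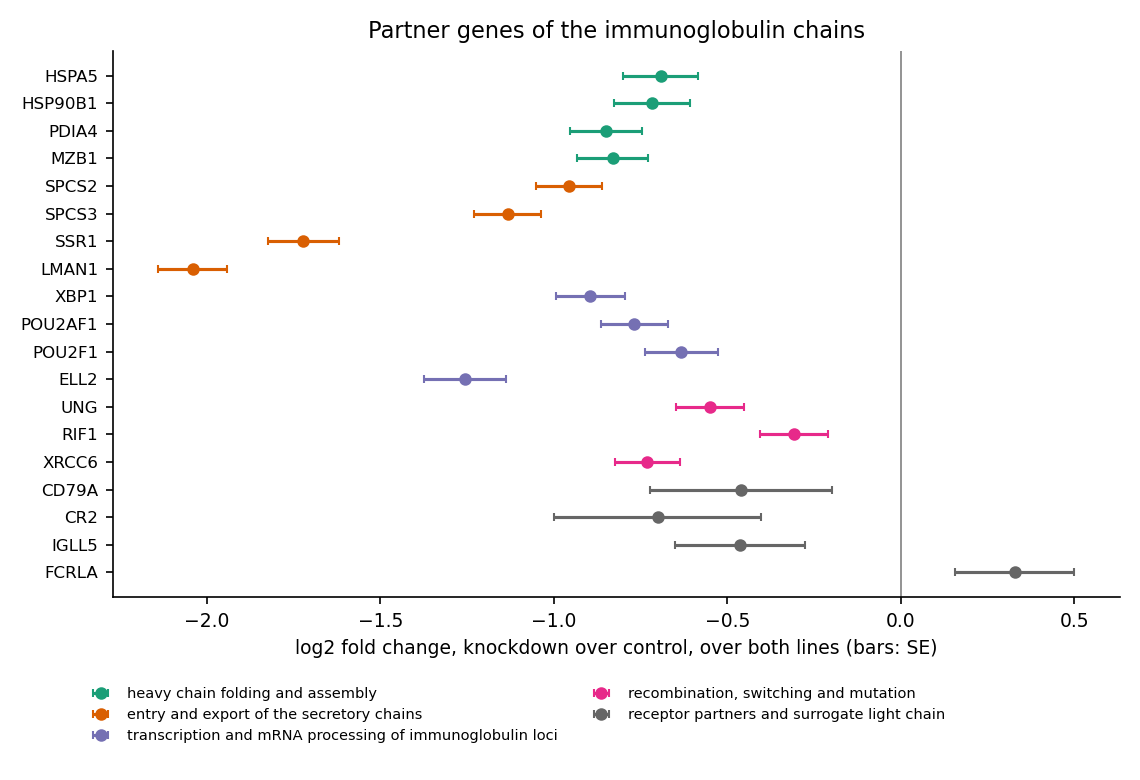
Log2 fold change of knockdown over control, over both lines, of partner genes by list (points, edgeR fit) with standard errors. The genes drawn were taken from those with the smallest edgeR p of their list, so their side of 0 follows in part from that choice. All of them lie left of 0 but FCRLA, from -2.04 (LMAN1) to -0.31 (RIF1). RIF1 and the 4 receptor partner genes did not pass the test. Tested list genes that are not drawn and lie right of 0 are PAX5, POU2F2, SPIB, HNRNPLL, CD79B and PIGR.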

How the data were processed

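RNA was sequenced from 4 libraries (total RNA by a miRNeasy kit, 100 ng into TruSeq RNA v2, per the labels' protocols), a kit that does not mark strand. HISAT, STAR, Bowtie2, GRCh37 and hg19 stand in the submitters' processing notes without a role, and which program counted reads is not stated there. Each deposited table gives, per the file headers, an expected count and an FPKM per gene, with the row's length in bases, and lists only genes above 0. Its rows include transcripts assembled by the authors. Expected counts are estimates and 52.2% to 54.0% of them lie within 0.005 of a whole number; they were rounded for the test.

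Rows sharing a symbol were summed, from 23844 identifiers to 22187 genes. The test was edgeR 4.0.16 (R 4.3.3; TMM, a minimum count of 10, construct and line as terms, adjusted p threshold 0.05), with 14870 genes tested and 5.849 prior degrees of freedom. It was tested on simulated data. The 2 constructs pair by cell line. The difference between the lines in the control libraries correlates at 0.9512 over genes with that in the knockdown libraries. This value does not measure how alike the knockdown changes of the lines were. Nothing says that libraries come from separate cultures, so p-values measure only the spread between these libraries. Shares have exact Clopper-Pearson intervals (95%), ratios exact conditional ones, and the limit for a count of 0 is 3 counts of the library's total. limma 3.58.1 and DESeq2 1.42.0 were alternatives.

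Positions and coding bases come from GENCODE 29 (GRCh38), matched by gene identifier for 46 of 65 member identifiers; nothing was converted from hg19 or GRCh37. The members, lists and markers were chosen with earlier results of these data known. Named are all constant genes and JCHAIN, up to 3 leading V segments per line and locus, each member called, and up to 4 genes per partner list by smallest p, with list genes at 0 throughout; a few genes that this rule would name are not reported here. Outside this rule, IGLL1, CD79B, SPIB, HNRNPLL, POU2F2, PAX5, PIGR and IGKV1-13 were chosen after their values were seen. The same holds for the identifiers of IGKV1-12 and IGKV1-13 and for the markers CD3E and CD38.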

Additional observations from a re-analysis of the deposited data

Results flagged for a closer look

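IGLV3-10 differed between the lines. The log2 ratio of its knockdown to its control share of counts was 2.392 in KMS18, where it had 16 and 84.3 counts, and -0.6209 in KMS28BM, where it had 138075 and 88860. The counting intervals lie on opposite sides of 0, and the difference was not tested because each line has 1 pair of libraries.

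JCHAIN also moved in opposite ways, with a log2 ratio of -0.128 in KMS18 and 0.04304 in KMS28BM. Both are small, their counting intervals exclude 0 on opposite sides, and this difference was not tested either.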

How the results depend on the processing

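The counts of members called over both lines depended on the setting. Those called higher (2) were 0 with a 5 CPM minimum in 2 libraries, which leaves the IgA genes untested, 0 with DESeq2, which gave IGHA1 (log2 2.12, unadjusted p = 1.25e-05) and IGHA2 (1.82, unadjusted p = 9.71e-05) no adjusted p, 1 with limma on log2(FPKM + 1) and 0 with a pseudocount of 0.1 (7 and 5 members at an unadjusted p under 0.05). Those called lower (1) were 3 with DESeq2 (IGKC and IGLC2 added), 0 in both limma fits and 0 with identifiers apart in edgeR (9 at an unadjusted p under 0.05; IGHD3-9 adjusted p = 0.0501). Over all genes, 3166 and 2861 of 12598 were at that unadjusted p in the limma fits, and 3721 of 15781 with identifiers apart. DESeq2 called 466 higher and 847 lower of 22108 genes fitted, and the 5 CPM minimum in edgeR gave 623 and 719 of 10897. With no replicate block, that is without the pairing by line, edgeR gave 0 higher and 0 lower, with 0 members at an unadjusted p under 0.05, and 0 of all genes called (215 unadjusted). Over all genes (531 higher, 781 lower), 124 and 243 were called without the filter on low counts, 138 and 281 with identifiers apart, 50 and 67 with limma on log2(FPKM + 1) and 0 and 0 with a pseudocount of 0.1; of the partner genes (28 lower), 14, 15, 5 and 0 were then lower, and 0 without the block. Between the lines, 10 members were lower with the 5 CPM minimum (19 in the reported fit and 17 to 23 in the others); there IGHE lost its call without the filter (adjusted p = 0.0501), with DESeq2 (0.207) and without a construct term (0.302), and IGHA2 without a construct term (0.143). By the size rule, a pseudocount of 0.1 gave 4 higher and 1 lower in KMS18 and 1 lower in KMS28BM, TMM-scaled CPM gave 1 lower in KMS18, and a 5 FPKM minimum gave 1 higher in KMS28BM. The shares of all genes past the rule at these other settings are not given, so these counts support nothing further about the members. Why the counts of members called or past the rule depended on the setting was not tested.

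Shares follow with control before knockdown, KMS18 before KMS28BM. The member share was 5.755%, 5.309%, 2.157% and 1.71% without mitochondrial transcripts in the total, 16.57%, 15.12%, 5.266% and 3.73% by summed FPKM, and 4.654%, 4.278%, 1.215% and 0.7839% without JCHAIN. The lambda share was 99.72%, 99.81%, 93.91% and 91.92% on constant genes and 97.49%, 97.31%, 97.01% and 96.06% by FPKM. With IGLL5, an alternative chosen after seeing the data, the member share in KMS28BM was 2.519% and 1.89% and the lambda share 97.03% and 95.98%. By FPKM, control before knockdown, IGHA held 15.85% and 32.81% and IGHG 82.3% and 62.99% of heavy constant in KMS18, IGKV3-15 43.6% and 43.26%, IGLV1-47 69.24% and 70.62%, IGKV5-2 24.45% and 51.96% and IGLV3-10 96.27% and 95.62% of their V class. Knockdown was below control in every member share named here, and no called value changed sign. For single genes, 380 values kept their side of the threshold, 13 of them, over 8 uncalled members, with another sign (IGLV3-16 from -0.44 to 1.16 with DESeq2 at most); 12 lost a call and 2 gained one (IGKC 0.0102 and IGLC2 0.0115 with DESeq2).

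No library could be left out in turn, since each line and construct has 1. Depth limits heavy chain values most: the IgA calls rest on 14.6 to 611 counts, and heavy V on 0 to 12. Precision beyond counting error is unknown.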

Other observations

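IGLL1, the surrogate light chain gene of precursor B cells and no member of the set, had 1 count in KMS18 control, 56 in KMS18 knockdown and 0 in both KMS28BM libraries, and its highest level was 1.86 FPKM. CD79B, a B cell receptor subunit, had 15.4 and 17.3 FPKM in the KMS18 libraries and is listed at 0 in KMS28BM. Its partner CD79A had 9.89 and 6.72 FPKM in the KMS28BM libraries but 0.48 and 0.46 in KMS18, control before knockdown. Members annotated as pseudogenes were at trace level, with IGHGP at 1.97 and 4.96 counts in KMS28BM and 0 in KMS18, except IGKV1-13, which had 266 and 257 counts in KMS18 and 0 in KMS28BM. The IGKV1-13 counts were split evenly over 2 gene identifiers, 132.81 each in control and 128.42 each in knockdown. Whether they include reads of IGKV1D-13, which had 16201 and 17167 counts in these libraries, was not tested.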
